A study of Saccharomyces cerevisiae with 23 samples.

Results

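The genes described here are the SNR genes of budding yeast (Saccharomyces cerevisiae) that are transcribed by RNA polymerase II, and the question is how often Ty1, a copia-type retrotransposon, inserted in them and in the 1 kb upstream of them. Members were the nuclear genes of the R64 annotation whose symbol is SNR followed by digits, with or without a suffix, except SNR6 and SNR52, which RNA polymerase III transcribes. This gave 79 of 6431 annotated nuclear genes: 46 of the box C/D class, 29 of the box H/ACA class and 4 of the spliceosomal class. Of these, 8 lay inside a protein-coding gene and 71 stood alone. The rule used no measured value. Intervals whose 5′ end fell on the same base and strand were counted as 1 site, and sites within 2 kb of a tRNA gene were left out because tRNA genes are the main targets of Ty1. This left 71 members with at least 500 countable positions upstream, each with all 1000. Another 7 members had no countable position upstream, and SNR45 had 129.

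The 2 Ty1 insertion libraries of the series are used here: 1 from cells kept for 24 h in 2% galactose and 1 from cells kept for 24 h in 2% dextrose. Both came from the haploid strain BY4741 (MATa his3delta1 leu2delta0 ura3delta0 met15delta0) carrying the plasmid pJEF2365, and both were grown first in 2% raffinose with 0.1% dextrose. After the test sugar both passed through dextrose medium for 24 h and then, for 24 h and again for 24 h, through dextrose medium with 1 mg/mL 5-FOA, which kills cells that keep a working URA3 gene. The labels name both SC complete and SC-Ura as the induction medium. Each sugar has a single library, so the spread between cultures is unknown, no test was made and every interval covers counting error only.

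Small nucleolar RNAs guide the chemical modification of ribosomal RNA: box C/D RNAs direct 2′-O-methylation and box H/ACA RNAs direct pseudouridylation, and a few of each are needed for cleavage of the ribosomal RNA precursor. The spliceosomal RNAs U1, U2, U4 and U5 form the core of the machine that removes introns, together with U6. Most yeast small nucleolar RNA genes have a promoter of their own, some are transcribed together as one precursor, and a few are cut out of the intron of a host gene. Ty1 integrase is known to bind a subunit of RNA polymerase III, which brings insertions to the genes of that polymerase. The SNR genes therefore hold, in one family, short and highly transcribed RNA genes of polymerase II beside a pair of polymerase III genes.

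The galactose library had 69370 sites more than 2 kb from a tRNA gene, 45.6% of its 152129 nuclear sites, and the dextrose library had 7974, 71.1% of 11208. Spread over the 11024453 such positions this is 6.29 sites per kb in galactose and 0.723 in dextrose, called the mean density below. A 1 kb window thus held about 6 galactose sites on average, and fewer than 1 dextrose site. A count of 0 in such a window allows up to 3 sites, 0.477 times the mean density in galactose and 4.15 times in dextrose. A single window of 0 in dextrose therefore cannot show a depletion. The libraries were not separate in their positions: 47.2% of the dextrose sites more than 2 kb from a tRNA gene lay at the same base and strand as a galactose site, and 5.43% of the galactose sites at a dextrose site. By their read names both came from the same instrument run and lane, and the part of this in the dextrose values was not tested.

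Upstream of the SNR genes, Ty1 sites were about as dense in galactose as upstream of any protein-coding gene. The 71 stand-alone members had 419 galactose sites in 54880 distinct upstream positions, 1.21 times the mean density (95% Poisson interval 1.10 to 1.34). Upstream windows of the 6002 protein-coding genes had 1.20 times the mean density (95% interval 1.18 to 1.21). The density of the stand-alone members was 1.01 times that of the protein-coding windows (95% interval 0.919 to 1.12), so no difference was detectable over 1 kb at this depth. In the nearest 250 bp the 103 galactose sites of stand-alone members gave 0.806 times the density at protein-coding genes (95% interval 0.658 to 0.977), and those of all members 0.788 times (95% interval 0.650 to 0.946), both below 1. Stand-alone genes not transcribed together with others gave 0.858 times (95% interval 0.690 to 1.05), which includes 1. Genes transcribed together gave 0.567 times (95% interval 0.302 to 0.970), and for the later ones these 250 bp lie largely inside the group. An SNR gene begins at the RNA's 5′ end and a protein-coding entry at the start codon, and the part of this was not tested. The windows of the members took in neighbouring genes, and their 251 sites outside coding sequence gave 0.928 times the density of all noncoding positions (95% interval 0.817 to 1.05). The value above the mean density thus turned to slightly below 1 when noncoding positions were compared with noncoding positions.

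Taken gene by gene, the members lay within the range of protein-coding genes. The 63 stand-alone members with 500 countable positions had a median of 8.00 galactose sites per kb upstream (quartiles 4 and 10, range 1 to 22). The 5476 protein-coding genes with as many positions had a median of 7 (quartiles 4 and 10, range 0 to 188). At least 2 times the mean density was reached by 5 of the 63 members (7.94%), against 13.9% of the protein-coding genes. At most 0.5 times the mean density was found at 14 members (22.2%), against 20.2% of the protein-coding genes. Genes transcribed together have overlapping windows, and the U5 forms have the same one, so these members are not all separate windows. Counted once per transcription unit, at its first gene, 5 of 53 units (9.43%) were at least 2-fold and 11 (20.8%) at most 0.5-fold. All 63 had at least 1 galactose site upstream, where 3.01% of protein-coding genes had 0. The line of 2-fold fell between SNR19 with 13 sites, at 2.07 times, and SNR32, SNR50 and SNR81 with 12, at 1.91 times, so a single site moves a gene across it.

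**Figure D1:**
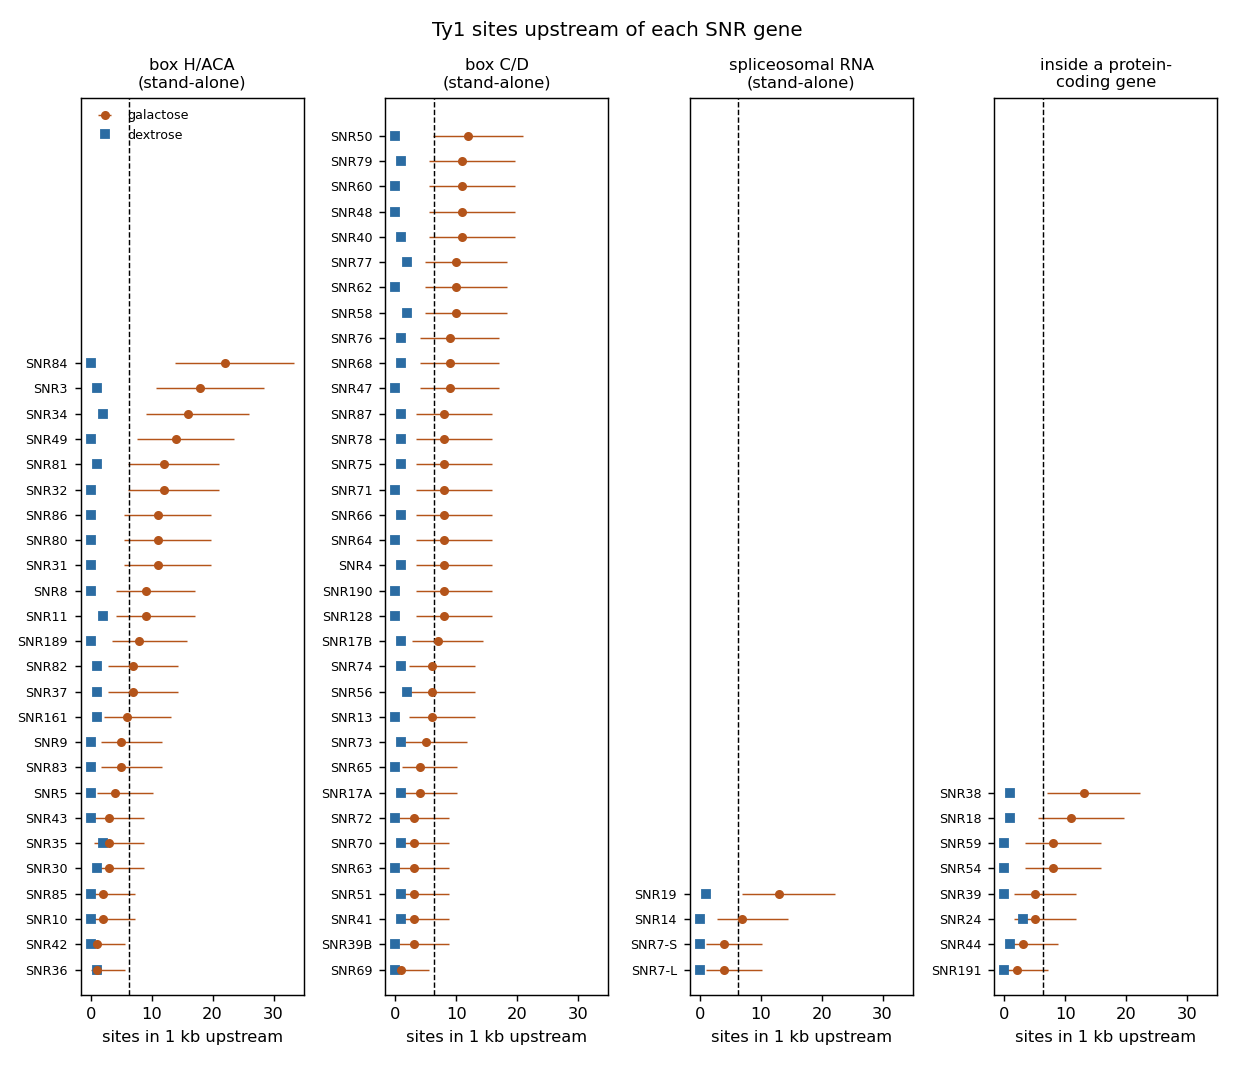
Sites in the 1 kb upstream of each SNR gene with at least 500 countable positions, in galactose (circles, with 95% Poisson intervals) and dextrose (squares), by class. The dashed line is the mean galactose density of 6.29 sites per kb, and the highest member, SNR84, had 22 galactose sites.

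The 4 members with the most galactose sites were all of the box H/ACA class, whose RNAs carry the guide for pseudouridylation. That class made up 25 of the 63 countable stand-alone members. It also held SNR36, SNR42, SNR10 and SNR85, which were among the 5 lowest. SNR84 (YNCD0032C, chromosome IV, 1492477 to 1493026, minus strand) had 22 galactose sites upstream and 0 dextrose sites, 3.50 times the mean density in galactose (95% interval 2.19 to 5.29). No protein-coding gene lay within its 1 kb window, the nearest upstream being HLR1 at 1560 bp. All noncoding positions together had 9.02 galactose sites per kb, 1.43 times the mean density, a higher level to set its 22 sites against. Of its 22 sites, 9 lay between 829 and 902 bp upstream, far from the gene itself. Among protein-coding genes 113 of 5476 (2.06%) had as high an upstream density or higher.

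SNR3 (YNCJ0030W, chromosome X, 663749 to 663942) had 18 galactose sites and 1 dextrose site upstream, 2.86 times the mean density in galactose (95% interval 1.70 to 4.52). Its window was 53.2% coding, and 6 sites clustered 194 to 270 bp upstream. SNR34 (YNCL0048W, chromosome XII, 899180 to 899382) had 16 galactose and 2 dextrose sites, 2.54 times the mean density in galactose (95% interval 1.45 to 4.13). At SNR34, 11 of the 16 sites lay within 100 bp, from 240 to 339 bp upstream, the most crowded stretch of any member. SNR49 (YNCN0018W, chromosome XIV, 716120 to 716284) had 14 galactose and 0 dextrose sites, 2.22 times the mean density in galactose (95% interval 1.22 to 3.73), with 6 of them 618 to 665 bp upstream.

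SNR19, described with the spliceosomal RNA genes, and the hosted SNR38 followed with 13 galactose sites each, at 2.07 times the mean density. The stand-alone members after them, all below 2-fold, were SNR32, SNR50 and SNR81 with 12 galactose sites each and SNR31 and SNR40 with 11 each. SNR48, SNR60, SNR79, SNR80 and SNR86 also had 11, and the tie was broken by symbol. Their Poisson intervals overlapped those of every member above them, so the order among them is not resolved. SNR31 (chromosome XV, 841958 to 842182) points away from its neighbour SNR5, another box H/ACA gene. The upstream window of SNR31 contains the SNR5 gene, and the 5 galactose sites inside SNR5 are counted for SNR31 as well.

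**Figure D2:**
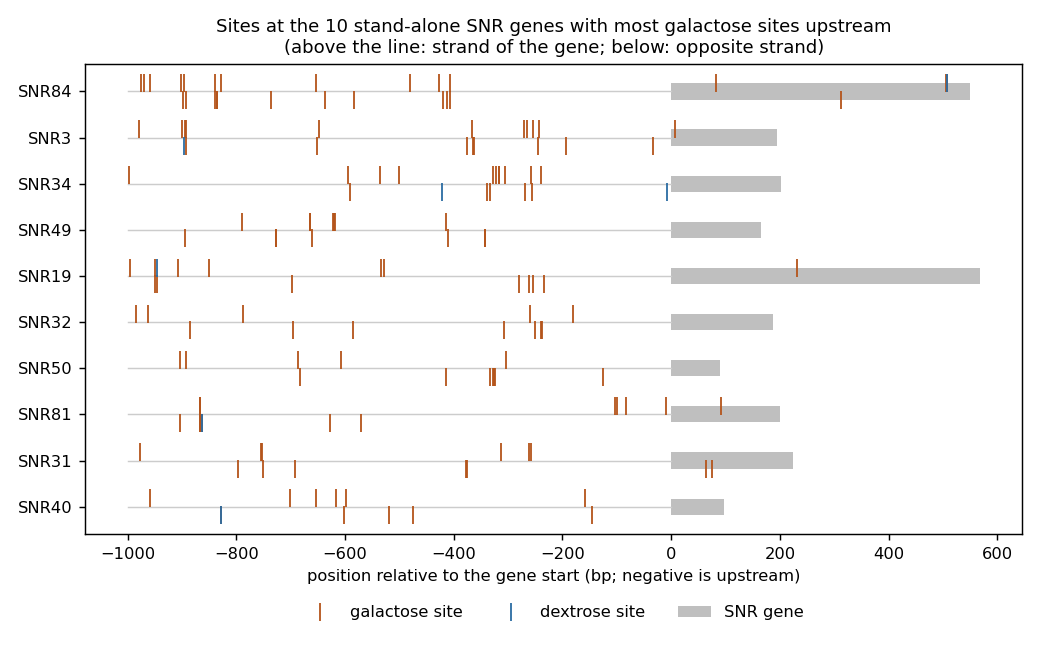
Position of each site relative to the start of the 10 stand-alone SNR genes with the highest upstream galactose density, with galactose and dextrose sites in different colours, the strand of the gene above each line and the opposite strand below. SNR34 shows 11 galactose sites between 240 and 339 bp upstream, while SNR84 has none within 400 bp upstream.

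At the other end, 3 stand-alone members had a single galactose site in their upstream 1 kb, 0.159 times the mean density (95% interval 0.00402 to 0.885). They were SNR36 (chromosome XV, 680685 to 680866) and SNR42 (chromosome XI, 559016 to 559366), both of the box H/ACA class, and the box C/D gene SNR69 (chromosome XI, 364776 to 364876). The site of SNR42 lay 965 bp upstream, that of SNR36 383 bp upstream and that of SNR69 99 bp upstream. In dextrose SNR36 had 1 site upstream and 1 in the gene, and SNR42 and SNR69 had 0. SNR10 and SNR85, both of the box H/ACA class, had 2 sites each, with intervals that include the mean density (0.0385 to 1.15 times). SNR10 had 2 dextrose sites inside its gene, at 182 and 188 bp from the start, and galactose sites at the same positions and strands.

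By class, the 27 stand-alone box H/ACA genes had 202 galactose sites upstream, 1.30 times the mean density (95% interval 1.12 to 1.49). The 40 stand-alone box C/D genes had 193, 1.13 times (95% interval 0.978 to 1.30). The density of the box H/ACA genes was 1.14 times that of the box C/D genes, with an exact conditional 95% interval of 0.935 to 1.40 that includes 1. The medians per gene went the other way. They were 7 galactose sites per kb (quartiles 3 and 11) for box H/ACA and 8 (quartiles 4.25 and 9) for box C/D genes. Relative to protein-coding windows both classes also include 1, at 1.08 (95% interval 0.938 to 1.24) and 0.945 (95% interval 0.817 to 1.09). At least 2-fold was reached by 4 of 25 box H/ACA genes (16.0%) and by 0 of 34 box C/D genes, against 13.9% of protein-coding genes. The highest box C/D gene was SNR50 with 12 sites, followed by SNR40, SNR48, SNR60 and SNR79 with 11 each, while the lowest gene of each class had 1. At most 0.5 times the mean density was found at 7 genes of each class, 28.0% of the box H/ACA and 20.6% of the box C/D genes, against 20.2% of protein-coding genes. Among these box C/D genes were SNR41, SNR70 and SNR51, which are transcribed together and whose windows overlap. Whether the classes differ in these counts was not tested.

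Among the spliceosomal RNA genes, U1 had the most sites. SNR19, the U1 gene (YNCN0005C, chromosome XIV, 230105 to 230672), had 13 galactose sites and 1 dextrose site upstream, 2.07 times the mean density in galactose (95% interval 1.10 to 3.53). A run of 4 of its sites lay 234 to 279 bp upstream, all on the strand opposite to the gene, and the other 9 lay 529 to 996 bp upstream within the coding sequence of POP1. SNR14, the U4 gene (chromosome V, 167427 to 167586), had 7 galactose sites and 0 dextrose sites, at 11, 39, 174, 217, 316, 912 and 913 bp upstream. SNR7-L and SNR7-S, the long and short forms of the U5 RNA, share a 5′ end on chromosome VII, and their common window had 4 galactose sites and 0 dextrose sites. LSR1, the U2 gene, is not a member by symbol and had 11 galactose sites and 1 dextrose site upstream.

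The bodies of the spliceosomal RNA genes held a single galactose site in 942 positions, in SNR19, where the mean density gives 5.93 (ratio 0.169, 95% interval 0.00427 to 0.940). Relative to protein-coding gene bodies the ratio was 0.198, with an interval from 0.00501 to 1.10 that includes 1. In dextrose they held 0, where the mean density gives 0.681. LSR1 had 4 galactose sites in its 1175 bp, a ratio of 0.541 (95% interval 0.147 to 1.39), which includes 1. The low value of the members rests on SNR19, SNR14 and the U5 gene alone.

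The RNAs needed for early cleavage of the ribosomal RNA precursor had a joint upstream density below the mean, with intervals that include it. U3 is encoded by SNR17A (chromosome XV, 780107 to 780596) and SNR17B (chromosome XVI, 281056 to 281517). SNR17A had 4 galactose sites upstream and 2 in the gene, and SNR17B had 7 upstream and 5 in the gene. In SNR17B 4 of the 5 gene sites lay within 22 bp of the start. SNR17A overlaps the protein-coding gene IRC13 in part. Together with SNR30, SNR10 and SNR128, the U14 gene, the 5 genes had 24 galactose sites upstream, 0.763 times the mean density (95% interval 0.489 to 1.14), and 3 dextrose sites, 0.830 times (95% interval 0.171 to 2.42).

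Of the 5 groups of genes that are transcribed together, 3 could be counted. The longest holds 7 box C/D genes, SNR78 to SNR72, on chromosome XIII (297278 to 298651). It had 8 galactose sites and 1 dextrose site in the 1 kb upstream of SNR78, and 5 galactose sites and 1 dextrose site over its whole span of 1374 bp. The pair SNR190 and SNR128 had 8 galactose and 0 dextrose sites upstream of SNR190, and 2 and 1 within its 385 bp. The group of SNR41, SNR70 and SNR51 had 3 galactose sites and 1 dextrose site upstream of SNR41, and 1 of each within its 543 bp. The joint windows of all polycistronic genes had 25 galactose sites, 0.667 times the density of protein-coding windows (95% interval 0.432 to 0.985). This was 0.799 times the mean density (95% interval 0.517 to 1.18). For later genes these windows lie largely inside the group itself. The 1 kb before the first genes, with 8, 8 and 3 galactose sites, lay on both sides of the mean of 6.29. Single stand-alone genes had 394 galactose sites upstream, 1.05 times the density of protein-coding windows (95% interval 0.947 to 1.16). This was 1.25 times the mean density (95% interval 1.13 to 1.38). The ratio of polycistronic to single genes was 0.637 (exact conditional 95% interval 0.407 to 0.955). It lies below 1 but rests on 3 polycistrons and on windows partly inside them. In dextrose the same ratio, on 3 and 26 sites, was 1.16 (95% interval 0.224 to 3.78). The other 2 polycistrons, which begin with SNR57 and SNR67, lie within 2 kb of a tRNA gene.

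The 8 hosted members lie inside EFB1 (SNR18), RPL7A (SNR39), TEF4 (SNR38), RPS22B (SNR44), IMD4 (SNR54), ASC1 (SNR24), NOG2 (SNR191) and RPL7B (SNR59). Most of these hosts encode ribosomal proteins or translation factors, and the gene table does not give intron positions. SNR38 had the most galactose sites upstream with 13, then SNR18 with 11, SNR54 and SNR59 with 8 each, SNR24 and SNR39 with 5 each, SNR44 with 3 and SNR191 with 2. Of the 8, 1 reached 2-fold, against 13.9% of protein-coding genes, and their median was 6.50 sites per kb. Their joint upstream windows had 55 galactose sites, 1.09 times the mean density (95% interval 0.823 to 1.42), and 6 dextrose sites, 1.04 times (95% interval 0.381 to 2.26). Relative to protein-coding windows the galactose value was 0.912 (95% interval 0.687 to 1.19) over 1 kb. It was 0.532 (95% interval 0.315 to 0.841) over the nearest 500 bp, where the members had 18 sites, so the result depends on the window. For a hosted member this window covers the 5′ part of the host and, where that is short, the sequence before it. The 1 kb upstream of the host genes themselves had 74 galactose sites, 1.49 times the mean density (95% interval 1.17 to 1.86).

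Inside the genes, neither stand-alone nor hosted members differed detectably from the mean density. The 71 stand-alone members had 74 galactose sites in 12686 positions, 0.927 times the mean density (95% interval 0.728 to 1.16). This was 1.09 times the density of protein-coding gene bodies (95% interval 0.854 to 1.37). Relative to all noncoding positions it was 0.647 (95% interval 0.508 to 0.812), an interval below 1. The 8 hosted members had 5 galactose sites in 1024 positions, 0.776 times the mean density (95% interval 0.252 to 1.81): 2 in SNR44, 2 in SNR24 and 1 in SNR191. The genes are short, with a median of 164 bp for stand-alone members, and 28 of the 64 stand-alone members with countable gene positions had 0 galactose sites inside. SNR86, the longest at 1004 bp, had 6, SNR17B and SNR5 had 5 each, and SNR84, SNR85 and SNR189 had 4 each.

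Distance from the gene start was examined over 58 stand-alone transcription units, in which a polycistron counts once at its first gene and the U5 forms count once. Of these, 53 had at least 500 countable positions upstream. A site counted once for each gene whose window held it. Galactose sites lay at a median of 431 bp upstream (quartiles 255 and 708), against 446 bp (quartiles 233 and 712) for protein-coding genes. The nearest 100 bp differed. They held 31 galactose sites at SNR units, 0.912 times the mean density (95% interval 0.620 to 1.29), and 1.52 times (95% interval 1.48 to 1.56) at protein-coding genes. The starts are not the same kind of point: 96.4% of protein-coding entries have a length that is a multiple of 3, so they begin at the start codon, while an SNR gene begins at the RNA's 5′ end. Whether this accounts for the difference was not tested.

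The highest part of the SNR profile lay between 251 and 350 bp upstream, a band chosen after the profile was seen. It held 71 galactose sites from 30 of the 53 units with countable positions there. This was 2.13 times the mean density (95% interval 1.66 to 2.69), against 1.53 times (95% interval 1.49 to 1.57) in the same band of protein-coding genes. Without SNR34, which gave 10 of these sites, the value was 1.86 (95% interval 1.43 to 2.39). The ratio to protein-coding genes was 1.40 (exact conditional 95% interval 1.09 to 1.76) with SNR34 and 1.22 (95% interval 0.933 to 1.57) without it. In dextrose the band held 1 site at SNR units. No preference for a strand was detectable at SNR units: 49.9% (95% interval 45.0 to 54.8) of the 413 galactose sites lay on the strand of the gene. In dextrose 11 of 28 did (39.3%, 95% interval 21.5 to 59.4). The galactose share at protein-coding genes was 49.8%, from 42233 counts of 33449 distinct sites. A site between divergent genes enters this share once on each strand, so it is not a free reference for strand.

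**Figure D3:**
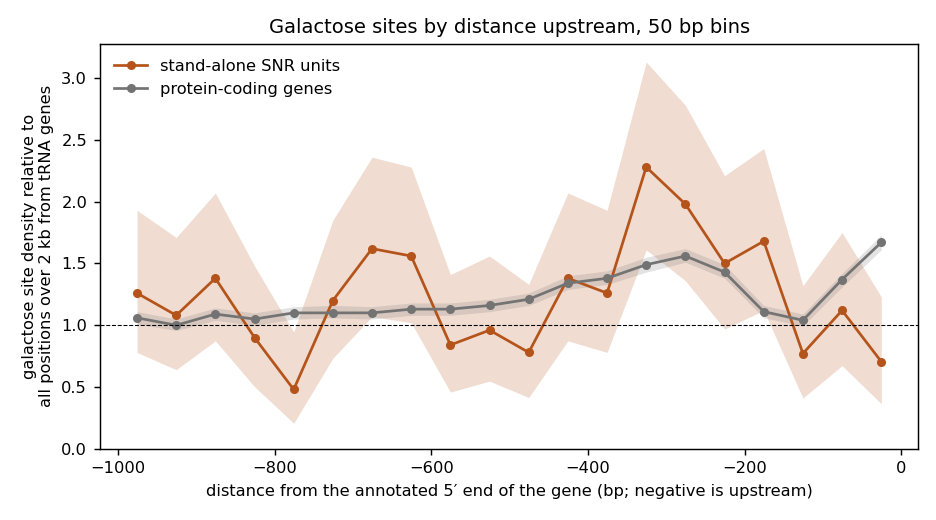
Galactose site density in 50 bp bins over the 1 kb upstream of the gene start, relative to the mean density, for the stand-alone SNR units and the protein-coding genes, with 95% Poisson intervals shaded. Only countable positions enter, and 53 of the 58 units had at least 500 of them. The SNR line peaks at 2.28 between 301 and 350 bp upstream and is at 0.706 in the nearest 50 bp, where protein-coding genes are at 1.67.

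In dextrose the counts were small, and most members had 0 or 1 site. The stand-alone members had 29 dextrose sites upstream, 0.731 times the mean density of that library (95% interval 0.489 to 1.05), where galactose gave 1.21. Without the sites at positions shared by the libraries, a choice made after seeing the data, these values were 0.859 (95% interval 0.509 to 1.36) in dextrose and 1.25 in galactose. As a share of each library's sites, they held 0.604% in galactose and 0.364% in dextrose, a difference of 0.240 percentage points (95% Newcombe interval 0.0729 to 0.366). Without the shared positions the difference was 0.194 points, with an interval from -0.0598 to 0.363 that includes 0. Upstream windows of protein-coding genes also held a larger share in galactose, 48.2% against 41.3% in dextrose, a difference of 6.96 points (95% interval 5.81 to 8.10). Relative to these windows the members' dextrose density was 0.713 (95% interval 0.478 to 1.02), so no difference from protein-coding genes was detectable in dextrose. At least 1 dextrose site upstream was found at 30 of the 63 members (47.6%), against 49.5% of protein-coding genes. Counted once per transcription unit it was found at 23 of 53 (43.4%).

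Inside the stand-alone genes the order of the media was the opposite, with 14 dextrose sites at 1.53 times the mean density (95% interval 0.834 to 2.56) where galactose gave 0.927. The difference in share, -0.0689 points (95% interval -0.190 to 0.00710), includes 0. The members with the most dextrose sites in gene and window together were SNR24, SNR56 and SNR68 with 3 each, followed by 10 members with 2, among them SNR10 and SNR11. SNR68 (chromosome IX, 97111 to 97246) had 1 dextrose site upstream and 2 at the same base inside the gene, on opposite strands, and its galactose sites clustered at 161 to 172 bp upstream, where 6 of its 9 lay. At SNR24 all 3 dextrose sites, at 437, 443 and 747 bp upstream, were also present in galactose. At SNR56 the dextrose sites lay at 465 and 468 bp upstream and at the first base of the gene, and that at 465 bp was also a galactose site.

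**Figure D4:**
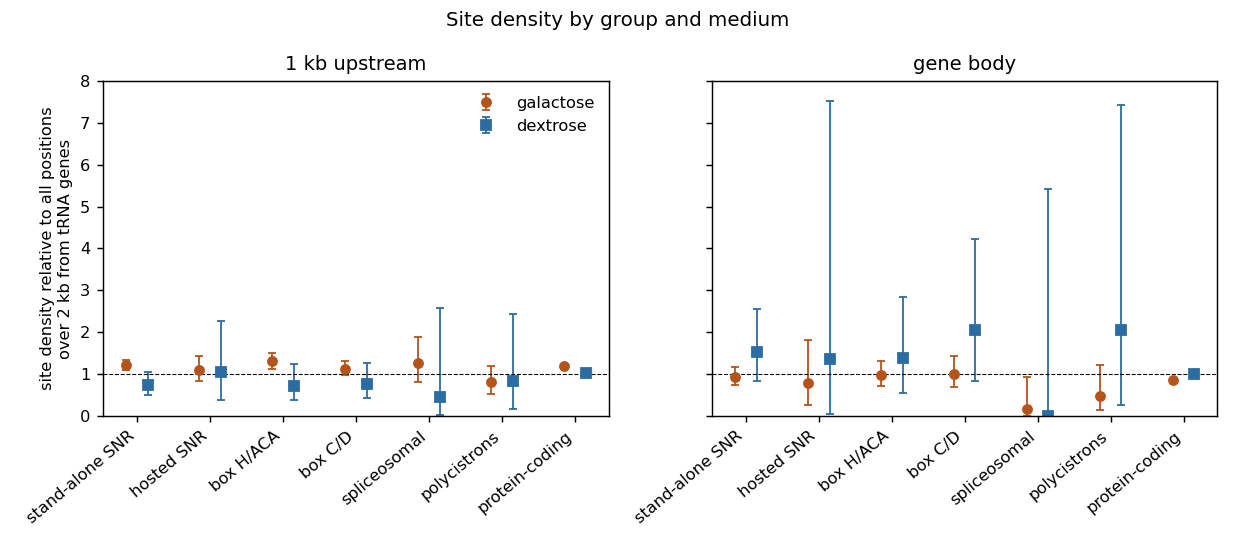
Site density relative to the mean density of each library, in the 1 kb upstream (left) and in the gene body (right), for galactose (circles) and dextrose (squares) with 95% Poisson intervals. Upstream, stand-alone SNR genes sit at 1.21 in galactose and 0.731 in dextrose, beside 1.20 and 1.02 for protein-coding genes.

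Few sites rested on more than 1 interval, at the members as elsewhere. Of the 544 galactose sites in members and their windows, 35.8% (95% Clopper-Pearson interval 31.8 to 40) came from full-length intervals of 96 bases, against 34.6% of all galactose sites over 2 kb from a tRNA gene. Of the 50 dextrose sites 6.00% did (95% interval 1.25 to 16.5), against 11.9%. At members 86.0% of galactose sites had a single interval, as did 98.0% in dextrose, against 84.6% and 96.3% over all such sites of each library. Of the 50 dextrose sites 23 (46.0%, 95% interval 31.8 to 60.7) were also galactose sites, against 47.2% over all such sites.

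The pair of SNR genes left out for their polymerase shows the scale. SNR6, the U6 gene, had 280 galactose sites and 14 dextrose sites in the same 1 kb window counted the same way, 44.5 times the mean density in galactose (95% interval 39.4 to 50) and 19.4 times in dextrose (95% interval 10.6 to 32.5). SNR52, a box C/D gene, had 191 galactose sites, 30.4 times (95% interval 26.2 to 35), and 14 dextrose sites. The interval of the highest polymerase II member, SNR84, ended at 5.29 times the mean density, below both. Inside SNR6 and SNR52, 112 and 92 bp long, there were 9 galactose sites each, more than in any member's gene.

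The 7 members without a countable position lay between 101 and 948 bp from a tRNA gene. With the tRNA neighbourhood kept, SNR46 had 196 galactose and 2 dextrose sites in gene and window, and SNR33 had 156 and 8. SNR61 had 43 and 2, SNR55 32 and 2, SNR57 28 and 2, SNR67 15 and 1, and SNR53 15 and 0. These values cannot be told apart from insertion at the tRNA gene. Among the 53 countable units, the 15 with a tRNA gene within 10 kb had 135 galactose sites upstream, 1.43 times the mean density (95% interval 1.20 to 1.69). The 38 with none had 278, 1.17 times (95% interval 1.04 to 1.32), and the ratio of these densities was 1.22 (95% interval 0.988 to 1.51). Units whose upstream coding neighbour lay on the same strand had 1.32 times (95% interval 1.15 to 1.50) and those with one on the opposite strand 1.16 times (95% interval 0.996 to 1.33), a ratio of 1.14 (95% interval 0.936 to 1.39).

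Protein genes that work with these RNAs were counted in the same way. Of 23 genes for core proteins of the particles and their assembly, 21 could be counted, and 2 reached 2-fold upstream in galactose, against 13.9% of all protein-coding genes: SHQ1, an assembly factor of box H/ACA particles, with 15 sites, and NOP58, a core protein of box C/D particles, with 13. NOP1, the methyltransferase of box C/D particles, had 3, and CBF5, the pseudouridine synthase, had 5. Of 16 genes for transcription and processing of small RNAs 0 reached 2-fold, and at most 0.5-fold was found at 3 (18.8%), against 4 of 21 in the first list and 20.2% of all protein-coding genes. TBF1, whose protein binds many small nucleolar RNA promoters, had 5 sites, 0.795 times the mean density. RNT1, the RNase III that trims the precursors of these RNAs, had 5 in only 714 countable positions, 1.11 times. Jointly these lists had upstream densities of 1.11 (95% interval 0.937 to 1.30) and 0.981 (95% interval 0.796 to 1.20) times the mean. Relative to protein-coding windows the values were 0.926 (95% interval 0.783 to 1.09) and 0.819 (95% interval 0.664 to 0.999). The transcription and processing genes were further below protein-coding genes in the nearest 250 bp, at 0.505 times (95% interval 0.289 to 0.820), and in the gene bodies they were at 0.751 times (95% interval 0.634 to 0.885). The particle proteins were at 1.06 in both places (95% intervals 0.784 to 1.40 and 0.867 to 1.27).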

How the data were processed

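Per the submitters' processing notes, the authors worked with Picard 3.4.0, bedtools 2.31.1, SAMtools 1.22, BWA 0.7.19 and Trimmomatic 0.39 on build R64 (sacCer3), and their settings are not stated there. The deposited files list aligned intervals with a mapping score between 30 and 60, not normalized, and their names mark them as unique with duplicates removed, yet a site could still hold up to 33 intervals. Per the labels' protocols, DNA was cut with MseI and ligated to adaptors, then cut with BglII, amplified and selected by size. How the density of MseI sites affects recovery was not taken into account, since no genome sequence was used here, and for the same reason no promoter is printed and a planned motif search was not run.

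Sites on the 16 nuclear chromosomes were counted with Python 3.11.15 and numpy 2.4.6 against a RefSeq gene table of R64 (275 tRNA genes), with strands read from systematic names. A position counted once in joint windows, but once per gene in the distance profiles, distance bands and strand shares. The protein-coding intervals there do not allow for sites counted more than once. Intervals are exact Poisson or Clopper-Pearson, Newcombe for differences and exact conditional (from the binomial share) for ratios of 2 densities, from scipy 1.17.1. The labels describe PCR and no molecular identifiers, so reads are not taken as independent molecules and intervals and floors of 3 counts cover counting error only. Window counting was tested on simulated data. Members, lists and tests were chosen with earlier results of these data known. Named were the spliceosomal and U3 genes, the 10 highest and 5 lowest stand-alone members upstream in galactose, hosted members, the first gene of each polycistron and the 5 members with most dextrose sites. The 21 MNase-seq samples of the series were not analysed here.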

Additional observations from a re-analysis of the deposited data

How the results depend on the processing

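No paired analysis was possible because each medium had 1 insertion library. The result that turned was the galactose density upstream of stand-alone members, 1.21 relative to the tRNA-free genome and 0.928 when noncoding positions were set against noncoding positions. Without any distance kept from tRNA genes the upstream value was 1.09, the gene body value 0.581 and the value relative to protein-coding windows 0.861, and hosted members had 0.545 upstream and 0.433 relative to protein-coding windows. With sites of at least 2 intervals the stand-alone gene value was 0.489, the hosted gene value 0, the dextrose upstream value 0, the value relative to protein-coding windows 1.18 and the difference in share between media 0.590 points (95% interval -0.706 to 0.754). With intervals of 96 bases the dextrose upstream value was 0.424 on 2 sites, the difference in share 0.452 points (95% interval -0.112 to 0.641), and hosted members had 0.804 upstream and 0.591 relative to protein-coding windows. A 500 bp window gave hosted members 0.715 and 0.532 in these measures. The 5 stand-alone members past 2-fold (7.94%, against 13.9% of protein-coding genes) became 9 with the 3′ end of the interval (14.3% against 12.1%), 21 with at least 2 intervals (33.3% against 26.5%), 8 with sites within 5 bp merged (12.7% against 15.9%) and 11 with 96 bases (17.5% against 20.9%). Members thus went from below to above the share of protein-coding genes with the 3′ end and with at least 2 intervals. The 14 members at most 0.5 times the mean (22.2% against 20.2%) became 24 with 96 bases (38.1% against 36.5%), 27 with no distance from tRNA genes (38.0% against 43.6%), 23 with at least 2 intervals (36.5% against 45.6%), 9 with merged sites (14.3% against 15.1%) and 7 without positions shared by the libraries (11.1% against 14.8%). The values for hosted windows and for the counts at most 0.5 times the mean, and the removal of shared positions, were added after seeing the data. The value in the first 100 bp, also added, was 0.616 with no distance from tRNA genes. The causes were not tested. Of 119 recomputed values 92 stayed close to the main value. Close meant within the counting interval of the main value, for counts within 1.5 times it, and for the median distance between the main quartiles. At 0.723 dextrose sites per kb, a single window cannot show a depletion in dextrose.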

Other observations

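Some upstream windows held many of their galactose sites in a short stretch, and these were picked after the values were seen, with no such value computed for other genes. Besides SNR34 and SNR84, the most crowded stretches of 100 bp were at SNR18 (7 sites, 771 to 863 bp upstream), SNR64 (7 sites, 355 to 441 bp) and SNR86 (7 sites, 194 to 283 bp). SNR64, a box C/D gene, had 8 galactose sites upstream in all. SNR65, with 4 sites, had no more than 1 in any 100 bp, and SNR31 had 4 of its 11.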
